A study of Mus musculus with 23 samples.

Results

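The 9 genes described here encode surface receptors and secreted chemokines of megakaryocytes and platelets. They are Itga2b, Itgb3, Gp1ba, Gp1bb, Gp9, Gp5, Gp6, Pf4 and Ppbp, which were chosen for what they encode and are 9 of 15202 genes tested. Where several probes carry a RefSeq identifier that maps to the gene's symbol, the one with the highest mean was used, and levels are given as log2 intensity, in which a difference of 1 is a 2-fold change. Levels of different probes are not on one scale, so that each gene is compared only with itself. All cells came from a mouse ES cell line, labelled C57BL/6, that carries human RUNX1-ETO with an HA tag behind a TET-responsive promoter in cells with normal RUNX1, made by Cre-mediated insertion in A2lox ES cells and picked as individual colonies. RUNX1-ETO is a fusion protein of acute myeloid leukaemia, and here it was switched on by doxycycline (Dox). Haemogenic endothelium (HE, sorted as KIT+Tie2+CD41-), HE2 cells (KIT+Tie2+CD41+) and progenitors (KIT+Tie2-CD41+) were sorted on day 2 of blast culture, without Dox or with 0.1 μg per ml Dox from day 1. Myeloid progenitors were KIT+CD41+ cells seeded in expansion medium with stem cell factor, Flt3 ligand and thrombopoietin, without Dox or with Dox for 12 h. Every group had 3 arrays, apart from 2 of uninduced and 2 of induced progenitors.

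Megakaryocytes are the large cells that shed platelets, and they arise under thrombopoietin and factors such as RUNX1, GATA1, FLI1 and NFE2. Platelets bind the vessel wall through the GPIb-IX-V complex, which holds von Willebrand factor, and through glycoprotein VI, which binds collagen. They join to each other through the integrin αIIbβ3, the receptor for fibrinogen, and release chemokines stored in their α-granules. CD41, the αIIb chain, is also on the surface of the first blood cells that leave the haemogenic endothelium, which is why it serves here as a sort marker.

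The arrays lay on 3 slides, and 48.8 to 78.4% of their spots were well above background, with the lowest share on induced progenitor array 2. Slide 3 held this array together with the myeloid progenitors, and these arrays and the additional uninduced progenitor array were scanned on another day than the remaining early arrays. Among the sort markers, Kit was well above background on every array. Tek, which encodes Tie2, had mean levels of 8.67 in uninduced and 11.10 in induced progenitors, although both were sorted as Tie2-. The probe for Runx1t1, the mouse gene for ETO, was higher with Dox by 1.24 in HE, with a standard error (SE) of 0.335 and an adjusted P of 0.0155 from limma. It was higher by 2.08 in HE2, by 3.96 in progenitors and by 2.06 in the expansion culture, and whether it detects the transgene was not tested. The arrays measured bulk RNA, in which fewer cells of a type and less RNA per cell cannot be told apart.

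The promoters of 8 of the 9 genes were read from the RefSeq table of GRCm38.p6, as 250 bases before and 50 after the start of the gene, and Itgb3 had no entry. They were searched on both strands for TGTGGT and the related TGCGGT, letters bound by RUNX factors. GATA letters were AGATAA and the related TGATAA, and ETS letters were AGGAAG and the related CGGAAG. A match is a description of the sequence and not of a bound site. RUNX letters were found in 1 of the 8 windows, that of Gp9, and 22.4% of all 32851 windows hold them. GATA letters were found in 4 windows (Gp1ba, Gp5, Gp6 and Pf4), compared with 18.6% of all windows. ETS letters were found in 6 windows (Itga2b, Gp1ba, Gp1bb, Gp9, Gp5 and Pf4), compared with 46.5% of all windows, and the window of Ppbp held none of the letters. The 250 bases before the start are shown for 5 genes that carry the results below: Itga2b and Gp1ba, which were lower with Dox in HE, Gp5, which was higher with Dox in HE2 and progenitors, and Gp6 and Pf4, which were lower with Dox in myeloid progenitors. They lie at chr11:102469884-102470133 on the minus strand (Itga2b), chr11:70638872-70639121 on the plus strand (Gp1ba), chr16:30310782-30311031 on the minus strand (Gp5), chr7:4397745-4397994 on the minus strand (Gp6) and chr5:90772185-90772434 on the plus strand (Pf4). Each runs 5′ to 3′ towards the start of the gene, and capitals mark the matches.
Itga2b: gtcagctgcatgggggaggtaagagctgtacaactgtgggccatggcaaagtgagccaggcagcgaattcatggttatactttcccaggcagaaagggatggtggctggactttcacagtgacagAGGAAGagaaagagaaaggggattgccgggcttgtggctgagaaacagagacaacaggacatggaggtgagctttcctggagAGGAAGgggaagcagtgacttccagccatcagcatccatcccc
Gp1ba: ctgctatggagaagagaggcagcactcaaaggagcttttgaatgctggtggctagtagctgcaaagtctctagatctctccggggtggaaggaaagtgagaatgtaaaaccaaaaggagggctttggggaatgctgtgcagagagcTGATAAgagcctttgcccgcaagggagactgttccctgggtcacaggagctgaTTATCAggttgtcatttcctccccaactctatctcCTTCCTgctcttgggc
Gp5: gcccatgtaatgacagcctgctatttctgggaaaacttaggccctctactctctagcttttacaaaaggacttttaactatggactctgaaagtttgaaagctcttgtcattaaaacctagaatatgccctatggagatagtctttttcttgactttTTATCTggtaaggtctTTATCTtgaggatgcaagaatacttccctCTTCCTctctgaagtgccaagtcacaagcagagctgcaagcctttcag
Gp6: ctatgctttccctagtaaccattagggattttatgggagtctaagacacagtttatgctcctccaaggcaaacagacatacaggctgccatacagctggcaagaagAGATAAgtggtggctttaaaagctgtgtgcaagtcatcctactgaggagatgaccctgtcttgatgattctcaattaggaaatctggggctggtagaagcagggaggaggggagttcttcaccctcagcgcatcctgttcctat
Pf4: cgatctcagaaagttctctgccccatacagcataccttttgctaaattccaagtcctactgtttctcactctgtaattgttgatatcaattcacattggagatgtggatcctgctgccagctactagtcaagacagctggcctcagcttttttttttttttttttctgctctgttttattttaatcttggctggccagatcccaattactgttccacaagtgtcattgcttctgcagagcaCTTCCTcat
The Gp5 window held AGATAA on the reverse strand at 2 places, and the Gp1ba window TGATAA at 2 places, once on each strand. The Pf4 window held AGGAAG on the reverse strand from 9 bases before the start, and its GATA letters lay after the start and outside the stretch shown.

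The 9 genes were not measured alike at the 4 stages. Itga2b, Itgb3, Gp1ba, Gp1bb, Gp5 and Pf4 were well above background on every array. Gp9 was below this limit on induced HE arrays 1 and 3, and Gp6 on induced progenitor array 2. Ppbp was well above background on the 6 myeloid progenitor arrays and on no other array. All 9 genes were tested, but Gp6 and Ppbp reached the log2 intensity of 6.5 that was required on at least 1 array only in myeloid progenitors, on 6 and 4 arrays. Their values at the earlier stages therefore lay below that level, and Ppbp has only an upper bound there.

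**Figure D1:**
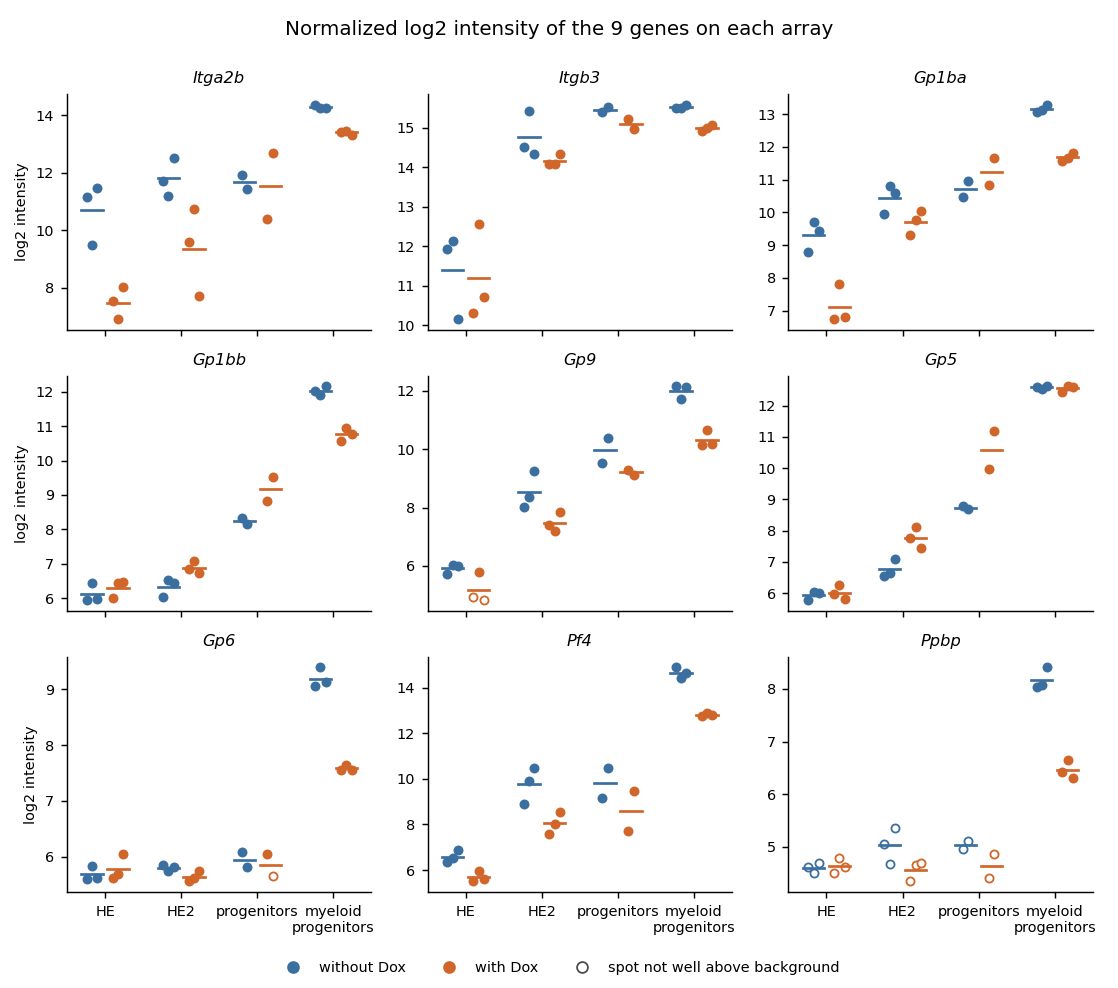
Normalized log2 intensity of each gene (vertical axis, its own scale in each panel) at the 4 stages without Dox (blue) and with Dox (orange), where a point is an array, a bar is the group mean and an open point is a spot not well above background. All 9 genes had their highest mean in uninduced myeloid progenitors with this normalization, but Itgb3 led uninduced progenitors by 0.08 only, with overlapping arrays, and was below them with 75th percentile scaling (-0.37) and with the early and myeloid arrays normalized apart (-0.16). The other Itgb3 probe, not shown, had means of 9.58 in uninduced progenitors and 10.93 in uninduced myeloid progenitors. The arrays of Gp5 overlapped between the myeloid groups, and Ppbp was measured above background there and in induced myeloid progenitors only.

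Ordered by level, the 8 group means showed a graded course for some genes and a single jump for others. Gp5 ran from 5.94 in uninduced HE through 6.00, 6.76, 7.78, 8.73 and 10.58 to 12.55 in induced and 12.58 in uninduced myeloid progenitors, and 5 of its 7 neighbouring pairs of groups did not overlap. Gp1bb, at 6.12 to 12.02, was as well separated, and its lowest 3 groups, uninduced HE, induced HE and uninduced HE2, overlapped. Gp6 had means of 5.64 to 5.95 in the 6 groups of the early stages, which all overlapped with their neighbours, and 7.59 and 9.19 in induced and uninduced myeloid progenitors. Itga2b was lowest in induced HE, at 7.49 ± 0.552 (SD, n = 3), and followed by induced HE2, at 9.35 ± 1.52, and uninduced HE, and each of these overlapped with the next. Its means in induced progenitors (11.54), uninduced progenitors (11.67) and uninduced HE2 (11.81) did not differ beyond their spread.

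The integrin subunits differed from each other at the first stage. Itga2b, which encodes αIIb (CD41), had log2 intensities of 11.15, 9.49 and 11.46 in uninduced HE, although these cells were sorted as CD41-. In induced HE the values were 7.53, 6.92 and 8.02. Every induced array was below every uninduced array, and the mean fell by 3.21 on the log2 scale, or 9.28-fold (SE 0.652, adjusted P = 0.00205 from limma). Without uninduced HE array 3 the change was -2.84, with an adjusted P of 0.0129 from limma, and was not called, since its unadjusted P lay just above the 0.001 that was required beside a 2-fold change. Itgb3, which encodes β3, the partner of αIIb, had values of 11.94, 12.13 and 10.16 without and 10.31, 12.57 and 10.72 with Dox in HE. These overlapped, and the change was -0.21 (SE 0.489). The gene that marks the sort was thus lower with Dox in cells of the same CD41- gate, while the values of its partner gene did not separate.

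In HE2 cells, which were sorted as CD41+, Itga2b had values of 11.72, 11.19 and 12.51 without and 9.58, 10.75 and 7.73 with Dox. All induced arrays were again lower, but they spread over 3 log2 units and the change of -2.46 (SE 0.652, adjusted P = 0.0139 from limma) had an unadjusted P of 0.00145 and was not called. It was called with slide as a block (-2.56) and with 75th percentile scaling (-2.57). With scan date as a block it was called at an unchanged -2.46, all HE2 arrays having been scanned on the same day. When 1 of the 6 HE2 arrays was left out, the change lay between -3.15 and -1.65. It was called there only without induced HE2 array 2, at -3.15. From HE to HE2 the Itga2b mean was higher by 1.1 without Dox and by 1.86 with Dox, which is given as a description only, since the gate was set on CD41. Itgb3 rose over the same step by 3.35 without Dox (10.2-fold, SE 0.489) and by 2.97 with Dox (7.83-fold, SE 0.489). In progenitors Itga2b had values of 11.91 and 11.42 without and 10.41 and 12.67 with Dox, so that the induced arrays lay on both sides of the uninduced ones. Without induced progenitor array 1 the change of Itga2b, which was -0.13 over all arrays, was 1.00. In myeloid progenitors it had values of 14.35, 14.23 and 14.25 without and 13.42, 13.46 and 13.32 with Dox. These did not overlap, and the change of -0.88 (SE 0.652) was below 2-fold. The SE of the fit rests on a spread shared by all 8 groups, while the SDs of Itga2b here were 0.0644 without and 0.0715 with Dox. The change of Itgb3 there was -0.53 (SE 0.489) with the probe used, and -0.93 with its other probe.

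The GPIb-IX-V complex is built from GPIbα, which holds the binding site for von Willebrand factor, GPIbβ, GPIX and GPV, encoded by Gp1ba, Gp1bb, Gp9 and Gp5. In HE, Gp1ba had values of 8.78, 9.72 and 9.42 without and 6.74, 7.81 and 6.81 with Dox. No arrays overlapped, and the mean fell by 2.19 (4.55-fold, SE 0.316, adjusted P = 8.71e-05 from limma). The difference lay between -2.53 and -1.98 when any of the 6 HE arrays was left out, and it was -2.51 on slide 1 and -2.11 on slide 2. The other subunits were at log2 values of 4.82 to 6.46 in HE and none was called, with changes of 0.19 for Gp1bb, -0.73 for Gp9 and 0.06 for Gp5. In HE2 the difference of Gp1ba between induced and uninduced cells was -0.75 (SE 0.316, adjusted P = 0.119 from limma). The difference between these responses, 1.44 in HE2 minus HE, was not called (SE 0.446, adjusted P = 0.184 from limma). It was called without induced HE array 2, at 1.78. Gp1ba in progenitors differed by 0.52 (SE 0.387) and was not called. Gp9, which encodes GPIX, had values of 8.02, 8.35 and 9.26 without and 7.39, 7.19 and 7.83 with Dox in HE2. These did not overlap, and the change of -1.07 (SE 0.314, adjusted P = 0.0238 from limma) was not called, whereas it was called at -1.34 without uninduced HE2 array 1 and at -1.24 with slide as a block. It lay between -1.34 and -0.72 when 1 of the 6 HE2 arrays was left out. In progenitors Gp9 had values of 9.53 and 10.40 without and 9.29 and 9.12 with Dox, a change of -0.76 (SE 0.385) that was not called.

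Gp5 took another course. It had values of 6.56, 6.63 and 7.09 in uninduced and 7.75, 8.13 and 7.45 in induced HE2 cells. The induced arrays were all above the uninduced ones, and the mean rose by 1.02 (2.03-fold, SE 0.247, adjusted P = 0.00763 from limma). This change sits at the 2-fold limit and was lost under 6 other settings, such as an offset of 50 at the background correction, where it was 0.83. It was also lost without uninduced HE2 array 1 or 2 or induced HE2 array 1 or 2, with changes of 0.92, 0.96, 1.03 and 0.85. In progenitors the values were 8.78 and 8.68 without and 9.97 and 11.20 with Dox. Gp5 rose there by 1.85 (3.61-fold, SE 0.303, adjusted P = 0.000911 from limma), and without induced progenitor array 2, the higher one, by 1.23. On slide 1, which holds 1 array of each, the difference was 1.19. In myeloid progenitors Gp5 had values of 12.61, 12.52 and 12.62 without and 12.44, 12.62 and 12.59 with Dox, which overlapped, with a change of -0.04 (SE 0.247). Gp1bb has other probes, which changed by -0.03 and 0.09 with Dox in HE2 and by 0.14 and 0.4 in progenitors. With the probe used, it was also higher on every induced array of HE2 and progenitors, by 0.57 and 0.91, and neither change was called. With the additional uninduced progenitor array, which the labels call both a technical replicate and replicate 3, that of Gp1bb in progenitors was 1.01 and was called, as was the 1.26 without induced progenitor array 1.

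In myeloid progenitors the other 3 subunits were lower with Dox. Gp1ba had values of 13.08, 13.13 and 13.28 without and 11.58, 11.67 and 11.82 with Dox, and the mean fell by 1.47 (2.78-fold, SE 0.316, adjusted P = 0.00348 from limma). Gp1bb had values of 12.02, 11.90 and 12.16 without and 10.57, 10.95 and 10.76 with Dox, and fell by 1.27 (2.40-fold, SE 0.209). Gp9 had values of 12.16, 11.72 and 12.13 without and 10.13, 10.66 and 10.17 with Dox, and fell by 1.68 (3.21-fold, SE 0.314). None of these 3 overlapped between the groups, while Gp5, the fourth subunit, did. Gp1bb has 3 probes, and the other ones changed by -0.64 and -0.60, below 2-fold. It overlaps Septin5 in the RefSeq table, which had a level of 6.62 without and 6.30 with Dox at this stage, and which transcript the Gp1bb probe detects was not tested. The fall of Gp1ba was no longer called without uninduced array 3 or induced array 1, where it was -1.42 each time.

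Gp6 encodes the collagen receptor glycoprotein VI, which signals through the Fc receptor γ chain. It had values of 5.6 to 6.08 in uninduced and 5.56 to 6.06 in induced cells of the 3 early stages, with changes with Dox of 0.10, -0.16 and -0.08. In myeloid progenitors it had values of 9.06, 9.39 and 9.12 without and 7.56, 7.65 and 7.56 with Dox. The groups stood apart by more than 1 log2 unit, and the mean fell by 1.60 (3.03-fold, SE 0.155, adjusted P = 1.36e-06 from limma). Fcer1g, the gene of that γ chain, fell by 1.53 in HE, fell by 2.96 in HE2 and fell by 2.01 in progenitors with Dox. In myeloid progenitors its change was -1.09 (SE 0.382), which was not called. None of the differences of its response that were tested between stages was called either.

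Pf4 and Ppbp encode the platelet chemokines platelet factor 4 and pro-platelet basic protein, and their genes lie beside each other in the RefSeq table. Pf4 was lower on average with Dox at all 4 stages. It had values of 6.37, 6.52 and 6.88 in uninduced and 5.50, 5.95 and 5.62 in induced HE, which did not overlap, and the change of -0.90 (SE 0.425) was not called. The HE arrays lie unevenly on slides 1 and 2, and with slide as a block the change was -1.14 and was called, so that 3 and not 2 of the 9 genes fell in HE. In HE2 the values were 8.90, 9.92 and 10.47 without and 7.57, 8.01 and 8.56 with Dox. They did not overlap, and the mean fell by 1.72 (3.29-fold, SE 0.425, adjusted P = 0.00875 from limma), a call that was lost with 75th percentile scaling (-1.79) and without any one of uninduced arrays 2 and 3 and induced arrays 1 and 2, with changes of -1.70 to -1.37. In progenitors Pf4 had values of 9.17 and 10.48 without and 7.73 and 9.48 with Dox, which overlapped, with a change of -1.22 (SE 0.521). With slide as a block it was -1.73 and was called. In myeloid progenitors it had values of 14.89, 14.43 and 14.64 without and 12.75, 12.91 and 12.79 with Dox. All 3 induced arrays were far below the uninduced ones, and the mean fell by 1.84 (3.57-fold, SE 0.425, adjusted P = 0.00638 from limma). That call missed the limit by P alone when any array other than uninduced array 2 was left out, with changes of -1.88 to -1.72. Ppbp had values of 8.03, 8.07 and 8.41 without and 6.42, 6.65 and 6.30 with Dox in myeloid progenitors. These did not overlap either, and the mean fell by 1.72 (3.28-fold, SE 0.187, adjusted P = 5.09e-06 from limma).

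Counted over the 9 genes, Dox gave few calls at the early stages and more in myeloid progenitors. In HE, 2 genes fell and 0 rose, compared with 2.39% of all genes tested that fell and 4.7% that rose. In HE2, 1 fell and 1 rose, against 2.05% and 5.17%, and in progenitors 0 fell and 1 rose, against 0.704% and 3.03%. At an unadjusted P under 0.05, 4 of the 9 passed in HE, 7 in HE2 and 3 in progenitors, compared with 26.9, 29.5 and 20.2% of all genes. In myeloid progenitors 6 of the 9 fell and 0 rose, against 1.18% of all genes that fell and 5.13% that rose. The median change of the 9 genes there was -1.47, compared with -0.02 over all genes, and 8 of them did not overlap between the groups, as held for 22.5% of all genes in that direction. Ppbp and Gp6 were tested only through their levels in myeloid progenitors, and of the 7 other genes 4 fell. Leaving out 1 of the 6 arrays left 4 to 6 of the 9 called. All 6 arrays lay on slide 3, so that this comparison is within 1 slide.

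**Figure D2:**
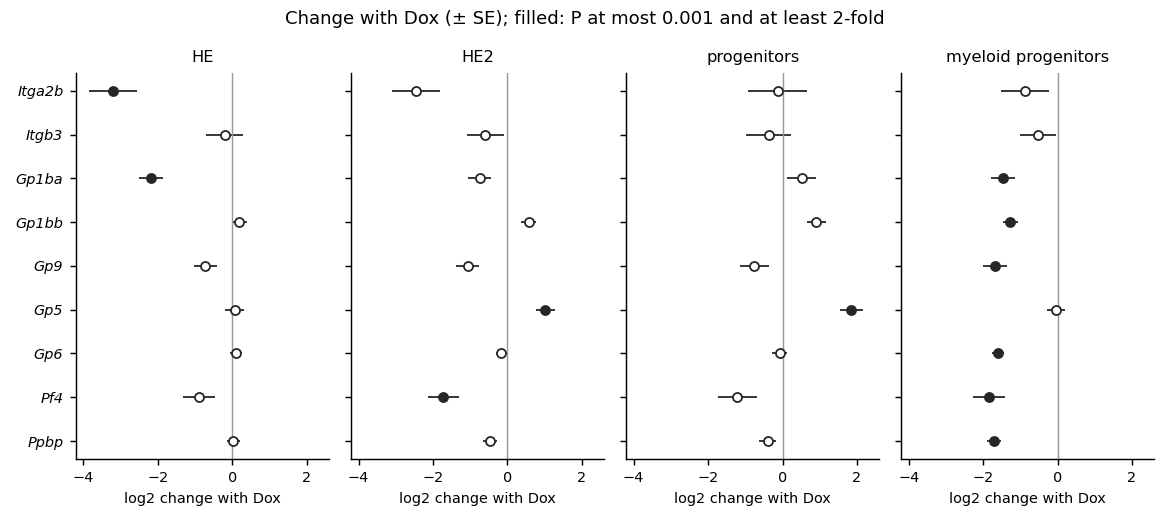
Log2 change with Dox of each gene (horizontal axis, induced minus uninduced, with bars of 1 SE) in HE, HE2, progenitors and myeloid progenitors; filled points passed P of at most 0.001 and a 2-fold change in limma. In myeloid progenitors 6 genes lie between -1.84 and -1.27, whereas Gp5 lies at -0.04 there and at 1.85 in progenitors.

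Whether the response to Dox differed between stages was tested with interaction terms in the same fit. For HE2 minus HE 0 of the 9 genes were called, compared with 1.34% of all genes, and 2 had an unadjusted P under 0.05 in limma, compared with 8.62%. For progenitors minus HE2 0 were called, compared with 0.645%, and 3 had such a P, compared with 8.1%. The response in myeloid progenitors was lower than in HE for 3 genes, Gp1bb by 1.45, Gp6 by 1.70 and Ppbp, compared with 1.76% of all genes. It was lower than in progenitors for 5 genes, compared with 0.664% of all genes. These were Gp1ba with a difference of -2.0 (SE 0.499, adjusted P = 0.0585 from limma), Gp1bb with -2.18 (SE 0.33), Gp5 with -1.89 (SE 0.391) and Gp6 with -1.52 (SE 0.245), and the fitted value of Ppbp also passed. Ppbp was not well above background on any progenitor or HE array, so that its response there was not measured and its difference is not a measured one. Of the 7 genes that reached the required level at an earlier stage, 3 were called against progenitors and 1, Gp1bb, against HE. Gp1bb was well above background in HE but below the required level on every array there, at 5.94 to 6.46. How large a fall with Dox could show at this level was not tested, and Pf4 had means of 6.59 without and 5.69 with Dox in HE. The differences of Gp1ba and Gp5 from progenitors were not called with slide as a block (-1.8 and -1.34) or scan date as a block (-1.59 and -1.27). Gp5 rose in progenitors and was not called in myeloid progenitors, and Gp6, Gp1ba, Gp1bb and Ppbp fell in myeloid progenitors and were not called in progenitors. Without induced progenitor array 2, which lay on slide 3, 2 of the 5 differences were called. The Dox response of Itga2b was 0.76 higher in HE2 than in HE (SE 0.923) and 2.34 higher in myeloid progenitors (SE 0.923, adjusted P = 0.176 from limma), neither of which was called.

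The genes did not come on together as the cells matured. From HE to HE2 without Dox, Itgb3, Pf4 and Gp9 rose by 3.35, 3.17 and 2.63 on the log2 scale, while 2.39% of all genes rose. The adjusted P values from limma were 0.00022, 9.54e-05 and 2.57e-05. Gp1ba was higher by 1.15 and was not called. Uninduced HE and HE2 arrays of the same replicate number deviated together, and when that number was taken as a block the 1.15 was called, with an adjusted P of 0.00174 from limma. It was called with slide as a block too, and at 1.4 without uninduced HE2 array 1. With Dox, 5 of the 9 genes rose over this step, compared with 1.62% of all genes. They were Itgb3 by 2.97, Gp1ba by 2.58, Pf4 by 2.36, Gp9 by 2.29 and Gp5 by 1.78. Gp1ba thus started from a lower level in induced HE, at a mean of 7.12, and reached 9.71 in induced HE2, compared with 9.31 and 10.45 without Dox.

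From HE2 to progenitors 3 of the 4 subunits of the GPIb-IX-V complex rose without Dox and all 4 with Dox. Without Dox, Gp1ba differed by 0.26 (SE 0.353) and was not called, while Gp5 rose by 1.97 (3.93-fold, SE 0.276), Gp1bb by 1.92 (3.80-fold, SE 0.233) and Gp9 by 1.42 (2.67-fold, SE 0.351), compared with 1.78% of all genes that rose. With Dox, Gp5 rose by 2.80 (6.99-fold), Gp1bb by 2.27, Gp9 by 1.73 and Gp1ba by 1.54, compared with 2.02% of all genes. Without induced progenitor array 2, Gp5 and Gp1bb were called and Gp1ba (1.13) and Gp9 (1.81) were not, and Gp9 was not called without induced progenitor array 1 either (1.65). The rise of Gp1ba was also lost without induced HE2 array 1 (1.33) or 2 (1.58), with slide as a block (1.4) and with 75th percentile scaling (1.48). With scan date as a block, Gp1ba (1.13) and Gp9 (1.81) were not called. The rise of Gp9 without Dox was lost with scan date as a block (1.42), with 75th percentile scaling (1.45) and without uninduced HE2 array 1 (1.16) or 2 (1.32) or uninduced progenitor array 2 (0.98). Pf4 and Itga2b had changes of 0.06 and -0.14 without Dox, and of 0.56 and 2.19 with Dox, none of which was called, although Itga2b was called at 2.88 without induced HE2 array 2.

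From progenitors to myeloid progenitors without Dox, 7 of the 9 genes rose, compared with 7% of all genes. Gp6 and Ppbp were tested because they reached the required level in myeloid progenitors, so that their rise is built into that filter, and of the other 7 genes 5 rose. Pf4 rose by 4.83 (28.4-fold, SE 0.475), Gp5 by 3.85 (14.4-fold, SE 0.276), Gp1bb by 3.78 (13.7-fold, SE 0.233), Gp6 by 3.24 (9.47-fold, SE 0.173), Gp1ba by 2.45 (5.45-fold, SE 0.353) and Gp9 by 2.04 (4.11-fold, SE 0.351). Without uninduced progenitor array 1, Gp9 was higher by 1.60 and was not called. With scan date as a block neither Gp1ba (1.63) nor Gp9 (2.2) was called, and with slide as a block Gp1ba (1.84) was not. Ppbp, which was not well above background in progenitors, was at least 8.79-fold higher in uninduced and at least 2.24-fold higher in induced myeloid progenitors, both means being taken against the higher of its own dim signal and the lowest signal well above background on each array. The other Gp1bb probes had means of 5.89 and 5.11 in uninduced progenitors and of 7.9 and 6.18 in uninduced myeloid progenitors. The second of them was well above background on no uninduced progenitor array. Itga2b was higher by 2.61 (SE 0.73, adjusted P = 0.0105 from limma) without overlap of the arrays, and was not called. It was called in a fit of the compared groups alone (SE 0.179) and with an adjusted P of at most 0.05 in place of the unadjusted limit. Itgb3 differed by 0.08 with the probe used. The other Itgb3 probe had means of 9.58 in uninduced progenitors and 10.93 in uninduced myeloid progenitors. Within slide 3, the probe used was higher by 0.8 in uninduced myeloid progenitors than on the additional uninduced progenitor array. With Dox, 5 genes rose, compared with 4.86% of all genes: Pf4 by 4.21, Gp5 by 1.97, Gp6 by 1.73 and Gp1bb by 1.60, and Ppbp by at least the fold given above. With the mean of its probes, Gp1bb was higher by 0.97 and was not called. These cells differ from the sorted progenitors in stage, medium and slide, which cannot be told apart here, and with Dox in the time of induction. Within slide 3, the uninduced myeloid progenitor means were above the additional uninduced progenitor array by 4.24 for Pf4, 4.06 for Gp1bb, 3.47 for Gp5, 3.05 for Gp6 and 2.69 for Gp1ba, all of them from 1 progenitor array. With Dox, the means were above induced progenitor array 2 on that slide by 3.33 for Pf4, 1.93 for Gp6, 1.35 for Gp5, 1.25 for Gp1bb and 0.04 for Gp1ba. All of these genes but Gp6 differed less there than over both progenitor arrays.

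**Figure D3:**
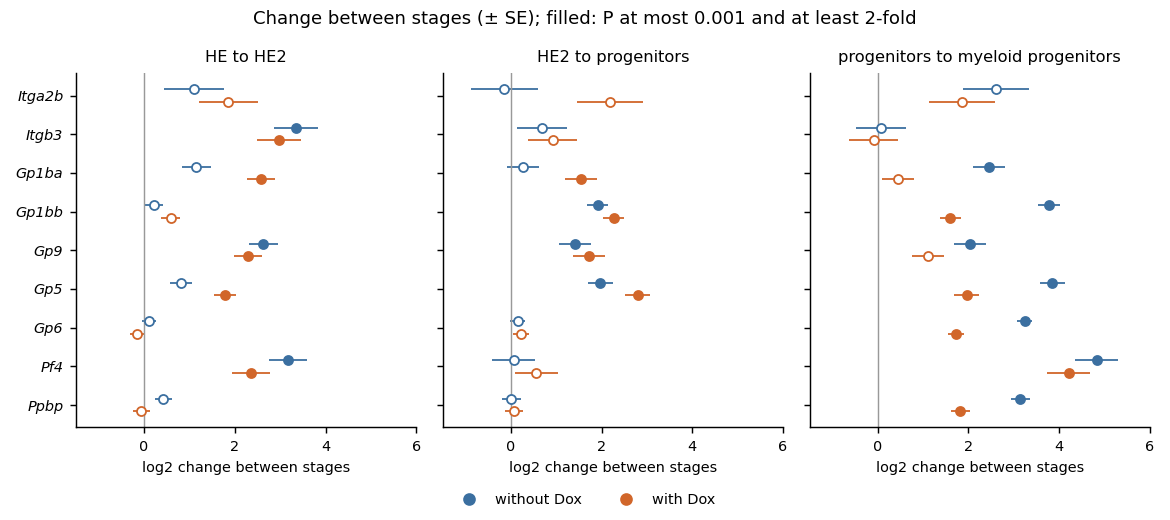
Log2 change between successive stages of each gene (horizontal axis, later minus earlier stage, with bars of 1 SE) without Dox (blue) and with Dox (orange); filled points passed P of at most 0.001 and a 2-fold change in limma. Without Dox, Itgb3 rose at the step from HE to HE2, Gp5 and Gp1bb rose at both later steps, and Gp6 and Ppbp rose at the last step. Ppbp was not well above background before that step, so that its points rest on dim spots. The rise of Gp1bb from HE2 to progenitors without Dox was lost with the mean of its probes (0.77).

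Other cell types were followed with marker genes. The means of 9 erythroid markers per array were 11.47 to 11.60 in uninduced progenitors, 15.29 to 15.68 in uninduced and 14.85 to 15.41 in induced myeloid progenitors, and all 9 rose at this step without Dox, compared with 7% of all genes. Each of the 9 was well above background on at least 1 array of both groups, and their change with Dox in myeloid progenitors had a median of -0.39 with 0 of 9 called. In HE, HE2 and progenitors, 4, 5 and 5 of the 9 erythroid markers rose with Dox, compared with 4.7, 5.17 and 3.03% of all genes. Gp5 rose in HE2 and progenitors too, where Pf4 had changes of -1.72 and -1.22. Of 8 endothelial markers, 6 rose with Dox in myeloid progenitors, compared with 5.13% of all genes, where their array means were 10.67 to 11.24 without and 12.82 to 13.14 with Dox. Of 5 mast cell markers tested, 2, 1, 2 and 2 rose with Dox at the 4 stages and 0 fell. These were Hdc at every stage, by 5.43 in myeloid progenitors, and Cpa3 at all stages but HE2, while Mcpt4 and Tpsb2 had changes of -0.22 and -0.17 in myeloid progenitors. Cma1 was higher there by 1.04 (SE 0.275) and was not called, and it was not well above background on any uninduced array of that stage. Of 6 macrophage markers 2 fell in HE2 (Csf1r and Cd14), of 5 neutrophil precursor markers 2 fell there (Mpo and Ltf), and of 6 heart and smooth muscle markers 3 fell there (Acta2, Tagln and Actc1), compared with 2.05% of all genes. The array means were 7.93 to 8.42 without and 6.59 to 7.46 with Dox for the macrophage markers in HE2, 8.23 to 8.97 and 7.43 to 7.83 for the neutrophil markers, and 10.34 to 11.49 and 9.36 to 9.58 for the muscle markers. Acta2 fell and Myl7 rose in HE, Prtn3 fell and Tnnt2 rose in progenitors, and Tnnt2 rose in myeloid progenitors. The neutrophil markers had a median change of -0.85 in myeloid progenitors with 0 called, and the macrophage markers one of -0.32 with 0 called. The part of these cell types in the levels of the 9 genes was not tested.

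The 8 group means of the 9 genes were correlated with each other, which is a description over points that share arrays and normalization. Of the 36 pairs, Gp6 with Ppbp (Pearson's r = 0.994) was the closest, with Ppbp not well above background in 6 of the 8 groups. Gp1bb with Gp5 (r = 0.978), Itga2b with Gp1ba (r = 0.954), Gp1ba with Gp9 (r = 0.953) and Gp9 with Pf4 (r = 0.941) followed. Among 3352 genes whose group means spanned at least 2 log2 units, those closest to each member were not all genes of this lineage. Itga2b was followed by Psat1 (r = 0.995), Hjurp (r = 0.993) and Iah1 (r = 0.990), and Itgb3 by Adgrg1 (r = 0.995), Lyz1 (r = 0.994) and Myb (r = 0.989). The genes close to Gp5 included Ifit2 (r = 0.991) and the α-globin gene Hba-a1 (r = 0.988). Gp6 was followed by Slc6a4 (r = 0.997), the serotonin transporter, Tex13b and Fam25c, and Pf4 by Bbs12 (r = 0.995), D030028A08Rik and Hs2st1. Gp1ba was followed by Tfdp2 (r = 0.991), Mto1 and 5033406O09Rik, and Gp9 by Cd80 (r = 0.988), Lyz2 and Mrm1. The genes close to Gp1bb included Npy (r = 0.995) and Icam4.

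Other genes of megakaryocytes and platelets were counted in 4 lists. Over all genes tested, 4.7% rose and 2.39% fell with Dox in HE, 5.17 and 2.05% in HE2, 3.03 and 0.704% in progenitors and 5.13 and 1.18% in myeloid progenitors. Of 15 genes of granules and secreted proteins, 0 rose and 3 fell with Dox in HE, 1 rose and 1 fell in HE2, 2 rose and 0 fell in progenitors, and 2 rose and 1 fell in myeloid progenitors. Treml1, an α-granule receptor of platelets, rose by 3.50 in HE2 (11.3-fold, SE 0.54) and 3.60 in progenitors (12.1-fold, SE 0.662). F5, coagulation factor V, fell by 1.76 in HE and 1.43 in myeloid progenitors. Pdgfb, a growth factor released by platelets and made by endothelium too, fell by 1.16 in HE and rose by 1.33 in myeloid progenitors. The list median in myeloid progenitors was -0.21, compared with -0.02 over all genes.

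Of 26 genes of receptors and signalling, 7 rose and 6 fell with Dox in HE (4.7 and 2.39% of all genes), 5 rose and 5 fell in HE2 (5.17 and 2.05%), 4 rose and 1 fell in progenitors, and 2 rose and 1 fell in myeloid progenitors. Clec1b, which encodes the podoplanin receptor CLEC-2, rose by 2.84 in HE (7.16-fold, SE 0.27), 3.13 in HE2 (8.75-fold, SE 0.27) and 2.11 in progenitors (4.31-fold, SE 0.331). Mpig6b, an inhibitory receptor of platelets, rose by 1.63 in HE2 and 2.29 in progenitors. Cd36, a thrombospondin receptor, and Itga6, a laminin-binding integrin chain, rose in HE, HE2 and myeloid progenitors, by 1.20, 1.86 and 1.29 and by 1.42, 1.53 and 1.55. On the other side F2rl3, the thrombin receptor PAR4, fell by 2.39 in HE and 1.51 in HE2. Lat, an adaptor in signalling from glycoprotein VI, fell by 1.98 in HE, 1.05 in HE2 and 1.53 in myeloid progenitors. Cd9, a tetraspanin, fell by 1.39 in HE and 1.07 in HE2.

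Of 14 genes of cytoskeleton and platelet formation that were tested, 0 rose and 3 fell in HE (4.7 and 2.39% of all genes), 0 rose and 1 fell in HE2, 1 rose and 1 fell in progenitors and 0 changed in myeloid progenitors. Actn1, which encodes α-actinin, fell by 1.24 in HE, 1.78 in HE2 and 1.87 in progenitors. Of 15 transcription factors, 0 rose and 2 fell in HE, 2 rose and 2 fell in HE2 (5.17 and 2.05% of all genes), 2 rose and 0 fell in progenitors, and 3 rose and 0 fell in myeloid progenitors. Fli1, an ETS factor of megakaryocytes, rose by 1.41 in HE2 cells and by 1.58 in the sorted progenitors, and in myeloid progenitors by 1.29 (SE 0.195, adjusted P = 0.000151 from limma). Nfe2, a factor needed for the release of platelets, fell by 1.19 in HE and 1.38 in HE2, and Lyl1 fell by 2.50 and 1.44. In myeloid progenitors, where 6 of the 9 receptor and chemokine genes fell, the medians of the 4 lists were -0.21, 0.01, 0.00 and 0.11.

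**Figure D4:**
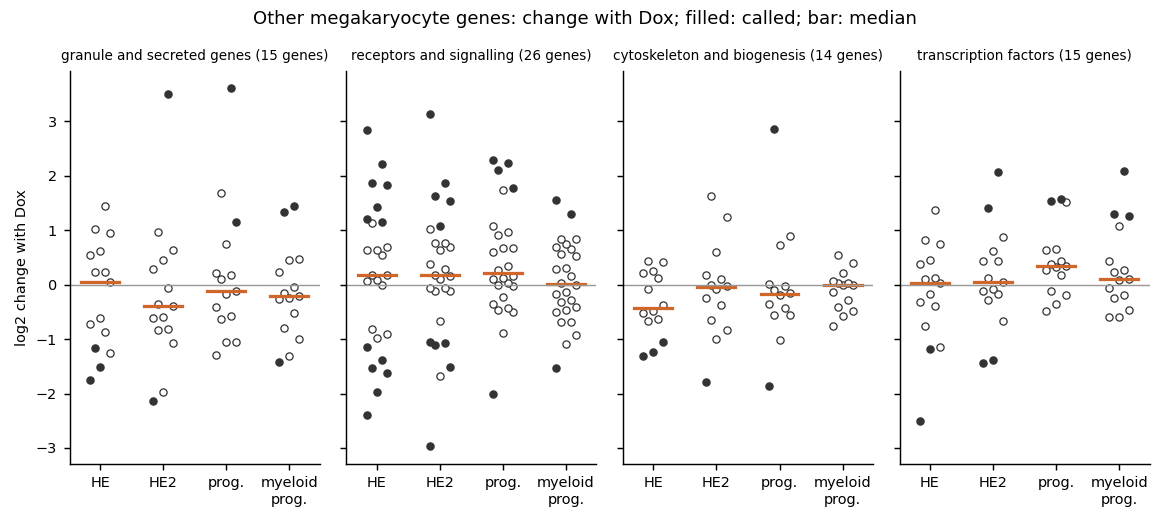
Log2 change with Dox (vertical axis) of each tested gene of the 4 lists in HE, HE2, progenitors and myeloid progenitors, where a point is a gene, filled points were called and the bar is the median of the list. In HE, called genes lay on both sides of 0 for receptors and signalling and only below 0 for the other lists. In HE2 they lay on both sides of 0 for every list but cytoskeleton and biogenesis, where 1 gene was called lower. The medians lay between -0.43 and 0.35.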

How the data were processed

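RNA was measured on 23 1-colour Agilent SurePrint G3 Mouse arrays. The authors deposited unnormalized spot and local background intensity from Feature Extraction, version 10.7.3.1 per the file headers and 10.7.1.1 per the labels. They also deposited log2 values, background corrected and quantile normalized by the authors, which served as an alternative. From the median intensities, the background was corrected with normexp (offset 16), 3671 control spots were left out and the arrays were quantile normalized together. Of 55681 probes, 26582 matched a symbol of 20145 genes in RefSeq's table for GRCm38.p6. The arrays are annotated on mm9 per the file headers, so that the table gave names and promoters only. Genes that reached a log2 intensity of 6.5 on any array were fitted with limma 3.58.1 (lmFit, then eBayes; R 4.3.3) on 22 arrays, with 14 residual degrees of freedom, after the fit had been tested on simulated data. The additional uninduced progenitor array was normalized and not fitted. Its median absolute log2 difference from the other uninduced progenitor arrays was 0.334 and 0.313, against 0.217 between them, and no arrays were counted as duplicates. Genes were called, as in the study's methods, where the change was at least 2-fold with an unadjusted P no higher than 0.001. Benjamini-Hochberg adjustment was over all genes tested. Spots marked as outliers were left out, which leaves some fits of single genes with fewer arrays. Of the deposited value columns, 0 had no matching array. The title of induced myeloid progenitor array 3 calls it a biological and its source name a technical replicate, and it was used as replicate 3. Uninduced HE and HE2 arrays of the same replicate number deviated together from their group means (correlations of 0.394, 0.795 and 0.608 across genes). The main fit had no block for this pairing, which entered only as an alternative with replicate number as a block. That block was shared by all early groups, although induced HE and HE2 arrays had correlations of 0.191, -0.475 and -0.0123. The members and lists were chosen with earlier results of these data known. Besides the 9 members, the text names list genes called in at least 2 of the 4 comparisons with Dox (at most 8 a list), Kit, Tek and Runx1t1, and the 3 genes with the highest Pearson r to a member that was well above background on every array of at least 4 groups; 2 of these genes are not reported here. The alternatives were other background corrections, normalizations, filters, probe rules, thresholds, samples in the fit, blocks for slide, scan date and replicate number, and leaving out each array. The number of arrays limits the precision.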

Additional observations from a re-analysis of the deposited data

Results flagged for a closer look

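Differences in the Dox response between stages, tested as interaction terms in limma, passed the threshold for 8 combinations of gene and stages. The response in myeloid progenitors was lower than in HE for Gp1bb (-1.45, SE 0.295, adjusted P = 0.00451 from limma), Gp6 (-1.70, SE 0.219, adjusted P = 0.000125) and Ppbp (-1.74, SE 0.265, adjusted P = 0.000467). These 3 calls held when any 1 of the 12 arrays was left out, but that of Gp1bb was lost with 75th percentile scaling (-1.53) and with the mean of its probes (-0.81). Ppbp was not well above background in HE or progenitors, so that its response there was not measured, and Gp6 and Ppbp were tested only through their levels in myeloid progenitors. Gp1bb was at 5.94 to 6.46 in HE, below the required level, and how large a fall with Dox could show there was not tested. The response in myeloid progenitors was lower than in progenitors for Gp1ba (-2.0), Gp1bb (-2.18), Gp5 (-1.89), Gp6 (-1.52) and Ppbp (-1.32), with adjusted P values from limma of 0.0585, 0.00302, 0.0212, 0.00554 and 0.0322. The difference of Gp1ba was not called when any 1 of 9 of the 10 arrays was left out. Without induced progenitor array 2 it was -1.59, and those of Gp5 (-1.27) and Ppbp (-1.09) were not called either. That of Ppbp was also lost without uninduced myeloid progenitor array 3 (-1.2), induced myeloid progenitor array 3 (-1.24) or uninduced progenitor array 1 (-1.24).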

How the results depend on the processing

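None of the 28 changes of sign was in a called value. Without a left-out array they were Gp1bb in HE (-0.02 with the mean of all probes), Ppbp in HE (-0.06 with slide as a block), Gp6 in progenitors (0.13 with slide and 0.12 with scan date), Itgb3 from uninduced progenitors to myeloid progenitors (-0.37 with 75th percentile scaling and -0.16 with the early and myeloid arrays normalized apart), Itga2b from uninduced HE2 to progenitors (0.09 with the additional array) and Pf4 from HE2 to progenitors (-0.06 without Dox with slide, -0.31 with Dox with scan date). Leaving out 1 array turned some of the same values and others: the change with Dox in HE ranged from -0.90 to 0.24 for Itgb3, -0.06 to 0.16 for Gp5, -0.05 to 0.09 for Ppbp and -0.03 to 0.18 for Gp6, that in progenitors from -1.26 to 1.00 for Itga2b and -0.28 to 0.12 for Gp6, and that in myeloid progenitors from -0.07 to 0.02 for Gp5. The step from uninduced HE2 to progenitors ranged from -0.45 to 0.21 for Itga2b and from -0.59 to 0.72 for Pf4, and with Dox from -0.31 to 1.44 for Pf4.

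The 1 member that rose with Dox in HE2, Gp5, became 0 with an offset of 50, no background correction, 75th percentile scaling, the deposited log2 values, a fit of the compared groups alone and slide as a block. The count of 1 that fell there stayed under 75th percentile scaling, but with Pf4 lost (-1.79) and Itga2b called (-2.57). It became 0 with the compared groups alone, 3 with slide, 2 with scan date, 3 with an adjusted P of 0.05 and 3 with the 2-fold limit alone. In HE the 2 that fell became 3 with slide (Pf4, -1.14). In progenitors the 1 that rose became 0 with the compared groups alone and 2 with the additional array, and the 0 that fell became 1 with slide and 1 with the 2-fold limit alone. The 5 responses lower in myeloid progenitors than in progenitors became 2 with 75th percentile scaling, 3 with slide and 2 with scan date. The 4 that rose from HE2 to progenitors with Dox became 2 with scan date, and the 3 from HE to HE2 without Dox became 5 with the 2-fold limit alone. With that limit alone, 1 response was higher in HE2 than in HE, 2 in progenitors than in HE2 and 1 in myeloid progenitors than in HE, against 0 for each.

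With the replicate number as a block, 1 response was higher in HE2 than in HE (Gp1ba) and 1 in progenitors than in HE2 (Gp1ba too), against 0 without it, and Gp1ba was called from uninduced HE to HE2 (1.15). No other call of a member described above changed. Arrays of the same number deviated together most clearly from uninduced HE to HE2, where they also lay on the same slide. Correlations were positive too from HE2 to progenitors, at 0.381 and 0.199 without and 0.162 and 0.118 with Dox. With Dox in progenitors they were 0.229, and in the other comparisons they were of mixed or negative sign. Whether the numbers mark shared cultures was not tested. Leaving out each array in turn gave 1 to 2 genes lower with Dox in HE, 0 to 1 higher and 0 to 2 lower in HE2, 1 to 2 higher in progenitors and 4 to 6 lower in myeloid progenitors. It gave 2 to 4 genes higher from HE2 to progenitors with Dox and 2 to 5 responses lower in myeloid progenitors than in progenitors. It gave 0 to 1 response higher in HE2 than in HE and 0 to 1 in progenitors than in HE2. A group left with 1 array is assumed to vary like the others. The 75th percentile scaling moved the median change of all genes to -0.19 in progenitors and -0.15 in myeloid progenitors. The cause of these differences was not tested. Values of Ppbp before the myeloid stage are limited by the background, and those of Gp6 there lay below the required level.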
